A study of Equus asinus with 3 samples.

Results

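The genes described are TNP1 and TNP2 (transition proteins), PRM2 and PRM3 (protamine genes) and HMGB4 (a testis high mobility group protein), taken by name from the features of 3 single-cell RNA libraries of the donkey (Equus asinus). They are 5 of 34267 features, and all 5 were present in each library. PRM2 is listed under the locus identifier LOC106836783, which the RefSeq gene table pairs with that symbol, and the other 4 under their symbols. PRM1, the other classical protamine gene, was not analysed here.

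The groups were 1 library each of testis, of the caput of the epididymis (the head of the duct in which sperm mature) and of the corpus (its body). The tissue came from 3 sexually mature males, and the labels give no treatment, strain or age and do not say which animals are in which library. For each library, tissue was stored for up to 48 h and digested with 0.2% collagenase for 15 min at 37 C. Droplet capture tagged each transcript molecule with a unique molecular identifier (UMI), so that the values are counts of molecules. With 1 library per tissue there is no replicate and no p-value was computed: the 95% intervals given reflect counting error alone. CPM below means counts per 1000000 UMIs of the barcodes summed.

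In a spermatid, the haploid cell that follows meiosis, most histones are removed from the DNA and replaced first by transition proteins and then by protamines, small basic proteins that pack the sperm nucleus tightly. Transcription stops as this packing proceeds, so spermatids make these messenger RNAs in advance and store them until the proteins are needed. TNP1 and TNP2 encode the 2 transition proteins. PRM2 encodes a protamine that is made as a precursor and trimmed, while PRM3 lies in the same gene cluster but encodes an acidic protein. HMGB4 belongs to the family of the chromatin proteins HMGB1 and HMGB2 and is known from the testis.

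Total depth was 47686179 UMIs over 8610 barcodes for testis, 13203203 over 9478 for caput and 4142512 over 9611 for corpus, where 9609 barcodes were kept. The median UMIs per barcode were 4714, 1145 and 371. Barcode names are running numbers, and 7441 names occur in both testis and caput, so that cells shared between libraries could not be counted. The testis label of germ cells held for most barcodes: 3 clusters with 222 barcodes, rich in fibroblast, T or NK cell or macrophage markers, were left out, and the 8388 barcodes that remained are called germ cells. They include cluster 8 (273 barcodes), in which 9 of 12 T or NK cell markers were raised beside germ cell genes; it fell short of the rule for leaving out, and the onsets without it are given. The caput label of somatic cells did not hold for 2 of its 12 clusters, numbers 8 and 9, which were rich in germ cell genes. No corpus cluster was. Markers of the luminal epithelium summed to 19924 CPM in the other caput clusters but to 658 CPM in corpus, where fibroblast markers summed to 25974 CPM.

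Each of the 5 genes had its highest level in testis, a lower one in caput and a trace in corpus. HMGB4 stood at 1000.5 CPM in testis (991.5 to 1009.5), 58.5 in caput (54.4 to 62.7) and 0.483 in corpus (0.0585 to 1.74). PRM3 stood at 263 CPM in testis (258 to 267), 17.0 in caput (14.8 to 19.3) and 0.241 in corpus (0.00611 to 1.35). TNP1 stood at 836 CPM in testis (827 to 844), 152 in caput (146 to 159) and 1.21 in corpus (0.392 to 2.82). No interval of one tissue reached that of the next for these genes.

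PRM2 stood at 408 CPM in testis (402 to 413), 83.2 in caput (78.4 to 88.3) and 0.483 in corpus (0.0585 to 1.74). TNP2 stood at 89.9 CPM in testis (87.2 to 92.6), 47.2 in caput (43.6 to 51.0) and 0.483 in corpus (0.0585 to 1.74). TNP2 was therefore the gene whose caput level came closest to its testis level.

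The step from testis to caput was unequal between the genes. HMGB4 was 17.1-fold lower in caput (15.9 to 18.4) and PRM3 15.5-fold (13.6 to 17.7). TNP1 was 5.49-fold lower (5.25 to 5.75), PRM2 4.90-fold (4.61 to 5.21) and TNP2 1.90-fold (1.75 to 2.07). The intervals of 4 of the 5, all but TNP2, lay wholly beyond 4-fold, against 9.82% of the 23395 features tested. From testis to corpus all 5 were beyond 4-fold (14% of features), and from caput to corpus all 5 were as well (2.27% of features).

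Detection followed the same steps but depends on depth. A UMI of HMGB4 was seen in 70.2% of testis barcodes (69.2 to 71.2%), one of TNP1 in 51.0%, PRM3 in 43.5%, PRM2 in 34.4% and TNP2 in 7.18%. With every barcode thinned to 300 UMIs these shares were 21.6, 10.7, 7.25, 6.52 and 1.22% in testis. At that depth the caput shares were 0.886, 1.15, 0.211, 1.013 and 0.401%, and in corpus between 0 and 3 of 9444 barcodes held a UMI of any 1 gene. The 0 was that of PRM3, which allows a share of up to 0.0318% (3 counts of the total, a limit also used for the other counts of 0).

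To order the onset of the genes, the testis germ cells were placed on an axis from spermatocyte to elongating spermatid, built from 3 gene lists that hold none of the 5 (20 spermatocyte, 18 round spermatid and 18 elongating spermatid genes measured). The axis was divided into 20 bins of 419 or 420 cells. The spermatocyte score fell from 0.512 in the first bin to 0.265 in the last, and the elongating score rose from 0.122 to 0.750. The summed first 5 bins gave each gene an early level, against which its rise was read. TNP2, with few UMIs, varied among these bins, from 5.28 CPM in bin 5 (2.81 to 9.02) to 13.8 in bin 4 (9.58 to 19.1). Onset was called at the first bin of the unbroken run to the end in which the counting interval lay above 2 times that early level; this rule was chosen after the data were seen.

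The genes left their early levels in the order HMGB4, PRM3, TNP1, PRM2, TNP2. HMGB4 did so after 35% of germ cells, PRM3 after 45%, TNP1 after 60%, PRM2 after 65% and TNP2 after 85%. All 5 were higher late than early (last 5 over first 5 bins, interval beyond 4-fold), as were 25.1% of the 14475 features tested. The same order was found in 10 of 10 other settings, with HMGB4 and PRM3 tied in 3 of them. Among the 10, the setting of at least 500 genes per barcode kept the same 8388 germ cells and could not change the order. The TNP2 value depended on 3 testis clusters (numbers 6, 8 and 13): without them its onset came after 95% of cells. Of these, cluster 13 had TNP2 among its leading genes, at 710 CPM (630 to 797).

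**Figure D1:**
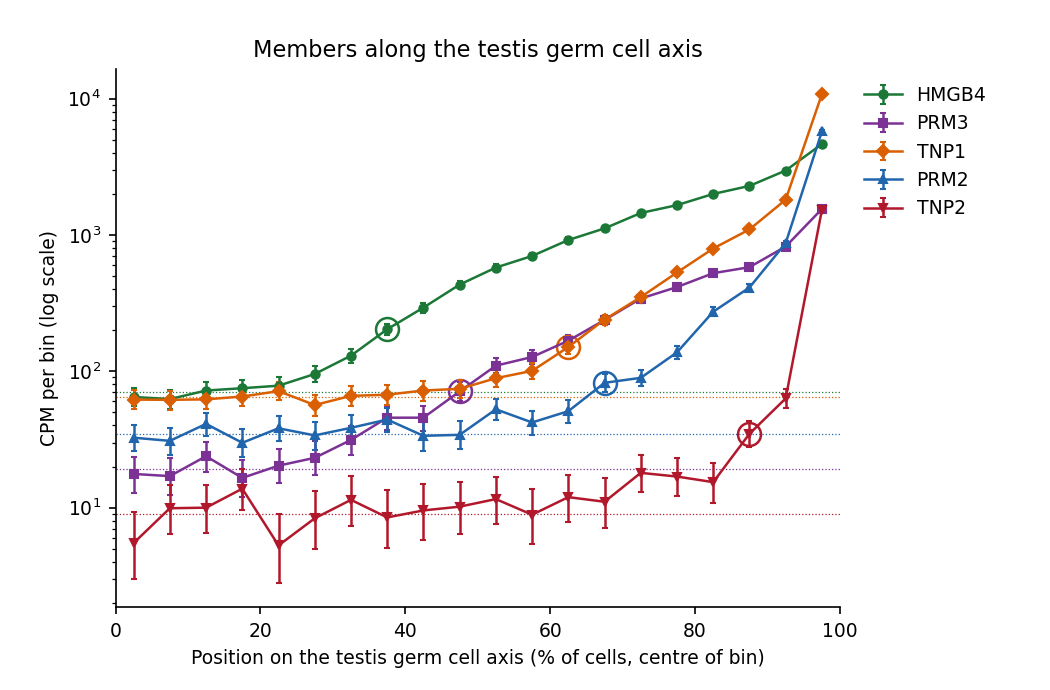
Level of each gene in 20 bins of the testis germ cell axis (horizontal, percent of cells from spermatocyte to elongating spermatid; vertical, CPM on a log scale). Points are summed counts with 95% Poisson intervals, dotted lines the mean level of the first 5 bins, and open circles the onset bins, which start at 35, 45, 60, 65 and 85% of cells for HMGB4, PRM3, TNP1, PRM2 and TNP2.

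HMGB4, the first to appear, averaged 70.5 CPM over the first 5 bins (66.0 to 75.3). It reached 203 CPM in bin 8 (185 to 223), 576 in bin 11, 1116 in bin 14, 1997 in bin 17 and 4641 in bin 20. Its climb was gradual, and it spread over much of the axis: 23.0% of its UMIs lay in the last bin, and its median UMI lay at 85.7% of cells.

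PRM3 started from 19.1 CPM (16.7 to 21.6). It stood at 45.6 CPM in bin 8 (37.0 to 55.7), 110 in bin 11, 238 in bin 14, 524 in bin 17 and 1550 in bin 20. Its course was also gradual but somewhat steeper than that of HMGB4, with 29.2% of its UMIs in the last bin (23.0% for HMGB4). Its median UMI lay at 88.6% of cells.

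TNP1 stayed near its early level of 64.5 CPM (60.1 to 69.0) for longer. It was at 67.3 CPM in bin 8 (56.7 to 79.2), 88.9 in bin 11, 239 in bin 14, 795 in bin 17, 1812 in bin 19 and 10771 in bin 20. The last step alone was several-fold, and 63.8% of its UMIs lay in the last bin.

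PRM2 started from 34.5 CPM (31.4 to 37.9). It was at 52.6 CPM in bin 11 (43.7 to 62.7), 82.3 in bin 14, 273 in bin 17, 870 in bin 19 and 5739 in bin 20, where 69.7% of its UMIs lay. TNP2 started from 8.91 CPM (7.34 to 10.7) and was still at 11.03 in bin 14 (7.07 to 16.4) and 15.4 in bin 17 (10.8 to 21.2). It then reached 34.8 CPM in bin 18, 63.2 in bin 19 and 1524 in bin 20, with 83.9% of its UMIs in the last bin. A TNP2 UMI was seen in 7.14% of cells in bin 18 and 7.64% in bin 19. These shares were no higher than the 7.88% of bin 4, while bin 20 had 39.9%. The rise in bins 18 and 19, and with it the onset, thus rested on few cells with more UMIs. TNP1, PRM2 and TNP2 were therefore late and steep, with TNP2 the latest and steepest.

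From the early level to the last bin, TNP2 was 171-fold higher (142 to 208), TNP1 167-fold (156 to 179) and PRM2 166-fold (151 to 183). PRM3 was 81.2-fold higher (71.3 to 92.9) and HMGB4 65.8-fold (61.5 to 70.5). Over the last 5 bins together, the ratio to the first 5 was 45.5-fold for TNP1, 41.95 for PRM2, 40.6 for PRM3, 38.3 for HMGB4 and 35.7 for TNP2, so that the order of the ranges depended on how much of the axis was taken as late.

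Since the early levels differ, the rise was also read as the excess over them. In bin 11 the excess was 506 CPM for HMGB4 (475 to 537), 90.8 for PRM3 (77.8 to 105), 24.4 for TNP1 (12.8 to 37.4), 18.1 for PRM2 (9.18 to 28.2) and 2.64 for TNP2 (-1.30 to 7.89). The intervals of TNP1 and PRM2 overlapped in that bin, and as a percent of the excess in the last bin PRM2 (0.317) stood above TNP1 (0.228), so that this early stretch does not order the pair. In bin 13 the percent was 0.804 for TNP1 and 0.288 for PRM2. In bin 16 it was 34.6 for HMGB4, 25.8 for PRM3, 4.35 for TNP1, 1.81 for PRM2 and 0.526 for TNP2, which is the order of the onsets. By the fixed rule of 10% of the highest bin, onsets came after 50, 60, 85, 90 and 95% of cells in that order. Several other settings left TNP1 and PRM2 level by this rule. They stood at 90% on diffusion pseudotime, without pooling over neighbours and without testis clusters 6, 8 and 13. With 10 bins both stood at 80% and with 40 bins at 95%, so the 10% rule does not firmly order this pair. At 50% of the highest bin HMGB4 and PRM3 were level at 90% and the other 3 at 95%.

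Among all 1781 features with at least 500 UMIs that were higher late than early, 69.8% had a later onset than HMGB4 and 38.5% a later one than PRM3. For TNP1 the share was 11.9%, for PRM2 7.69% and for TNP2 1.74%, or 31 features. By this rule HMGB4 was among the earlier of the spermatid genes, and TNP2 among the last. The rule asks for a larger rise where UMIs are few, as for TNP2.

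Co-detection in single cells was then examined without any axis. Each germ cell was thinned to 1500 UMIs and counted as positive for a gene with at least 3. Positive cells numbered 1875 for HMGB4, 762 for TNP1, 378 for PRM2, 328 for PRM3 and 92 for TNP2, of 8388. In the first 5 bins, between 0 and 2 of 2097 cells were positive for any 1 gene, where 0 allows a share of up to 0.143%. In the 222 somatic barcodes left out, 14 were positive for HMGB4 (6.31%), 3 each for TNP1 and PRM2 (1.35%) and 0 for PRM3 and TNP2, which allows a share of up to 1.35%.

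Cells positive for TNP2 carried nearly the whole set. Of the 92, all 92 were positive for TNP1 (96.1 to 100%), 91 for PRM2, 87 for HMGB4 and 63 for PRM3 (68.5%). In the other direction, 12.1% of TNP1 cells (9.84 to 14.6%) and 24.1% of PRM2 cells (19.8 to 28.7%) were positive for TNP2. Of PRM2 cells, 77.0% held TNP1 (72.4 to 81.1%), and 38.2% of TNP1 cells held PRM2 (34.7 to 41.7%). HMGB4 was held by 72.0% of PRM3 cells, 75.9% of TNP1 cells and 78.3% of PRM2 cells, while 12.6, 30.8 and 15.8% of HMGB4 cells held those genes.

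For PRM3, 25.7% of TNP1 cells (22.7 to 29.0%) and 41.8% of PRM2 cells (36.8 to 47.0%) held it, while 59.8% of PRM3 cells held TNP1 and 48.2% held PRM2. Which of the 2 shares of a pair is larger is fixed by which gene has more positive cells, and that number follows level as well as onset. The shares therefore describe which RNAs occur together and do not bear on the order of onset.

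**Figure D2:**
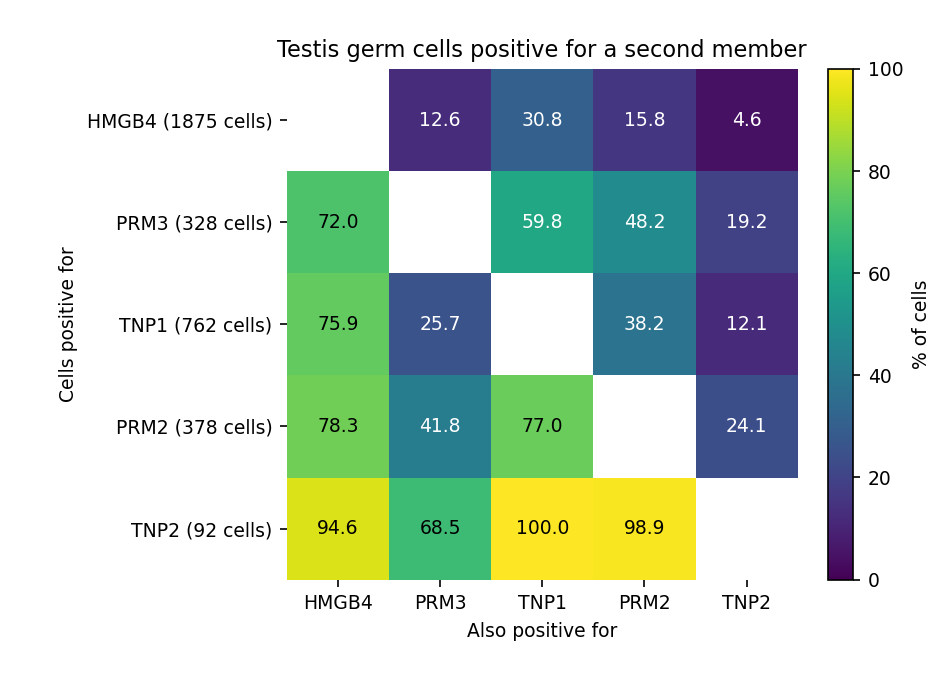
Percent of testis germ cells positive for the gene of the row (at least 3 of 1500 UMIs, number of cells in brackets) that were also positive for the gene of the column, with genes in the order of onset along the axis. The TNP2 row holds between 68.5 and 100%, and the TNP2 column between 4.64 and 24.1%.

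The last bin, which held most UMIs of TNP1, PRM2 and TNP2, was divided into 10 parts of 41 or 42 cells, numbered along the axis. Together the 5 genes made up 0.820% of all UMIs in part 1, 5.41% in part 8, 10.5% in part 9 and 5.67% in part 10. Median depth fell over the same parts, from 7111.5 UMIs per cell in part 1 to 3545, 2723.5 and 2960 in parts 8, 9 and 10. A level in CPM is a share of a cell's RNA, so UMIs per cell are given beside it.

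TNP1 rose from 2368 CPM in part 1 to 27050 in part 8 and 55935 in part 9 (54836 to 57049), then stood at 26012 in part 10 (25135 to 26912). Its UMIs per cell were 18.95, 135, 235 and 81.1 in those parts. In 1 cell of part 9 it took 10.2% of the UMIs. Its median per cell went from 198 UMIs in part 9 to 25 in part 10, where single cells ranged from 0 to 459. PRM2 went from 1520 CPM in part 1 to 11469 in part 8, 23663 in part 9 (22950 to 24392) and 21927 in part 10 (21123 to 22755), with 12.2, 57.1, 99.4 and 68.3 UMIs per cell.

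TNP2 had the narrowest window of the 5. It stood at 20.8 CPM in part 1, 684 in part 7, 5178 in part 8, 11177 in part 9 (10689 to 11681) and 1823 in part 10 (1597 to 2073). Its UMIs per cell were 0.167, 3.93, 25.8, 47.0 and 5.68. In part 9 the single cells ranged from 0 to 357 UMIs with a median of 35.5, and in part 10 from 0 to 56 with a median of 1.

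HMGB4 stood at 3326 CPM in part 1, 8175 in part 8, 10672 in part 9 (10196 to 11166) and 2778 in part 10 (2497 to 3083), with 26.6, 40.7, 44.8 and 8.66 UMIs per cell. Its median per cell went from 33.5 UMIs in part 9 to 2 in part 10, and 10 of the 41 cells of part 10 held none. PRM3 stood at 964 CPM in part 1, 2185 in part 8, 3304 in part 9 (3041 to 3584) and 4116 in part 10 (3772 to 4484), with 7.71, 10.9, 13.9 and 12.8 UMIs per cell. PRM3 was the 1 gene of the 5 whose level was highest in the last part.

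The last step thus separated the genes differently from the onset. From part 9 to part 10 the ratio of levels was 0.163 for TNP2 (0.142 to 0.187), 0.260 for HMGB4 (0.232 to 0.292), 0.465 for TNP1 (0.447 to 0.484), 0.927 for PRM2 (0.883 to 0.972) and 1.25 for PRM3 (1.11 to 1.40). TNP2 and HMGB4, the last and the first to appear, had the lowest ratios, and both protamine genes the highest. On diffusion pseudotime, another ordering of the same cells, the ratios were 0.259, 0.355, 0.492, 0.758 and 1.12 in that order, and the interval of PRM3 then included no change (0.996 to 1.27). The 35 germ cells positive for PRM3, TNP1 and PRM2 but not for HMGB4 or TNP2 had a median place of 99.6% along the axis. These values rest on 83 cells of 1 library, whose cells are not replicates.

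**Figure D3:**
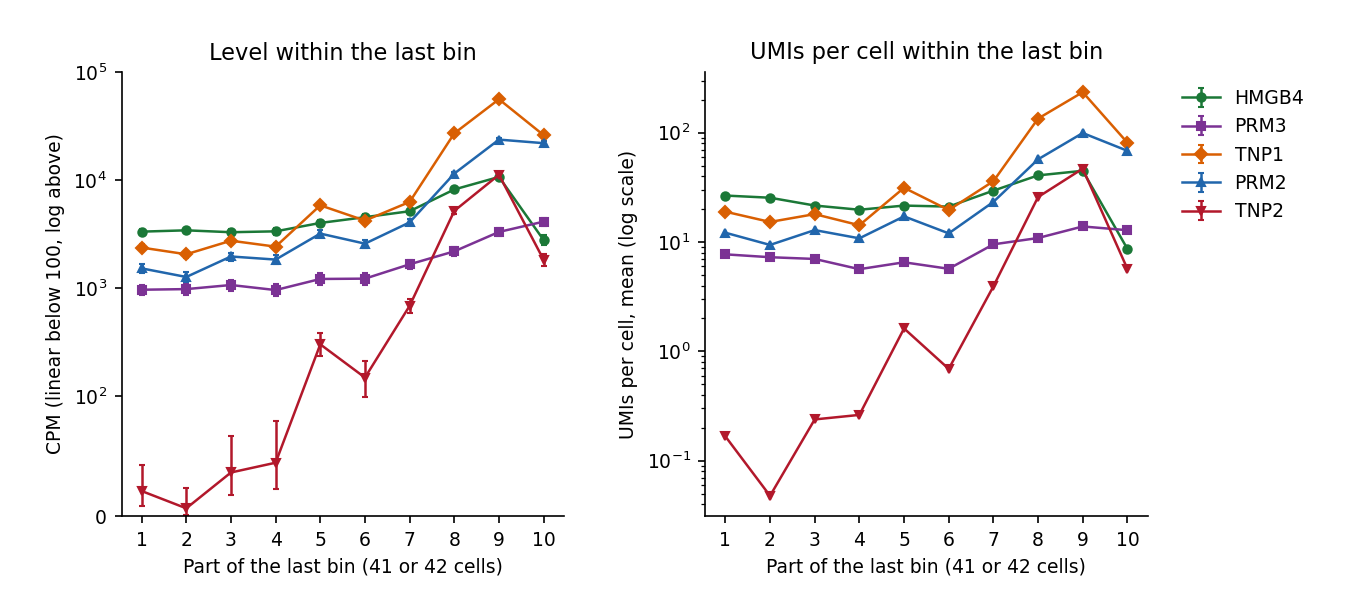
The last bin of the testis axis in 10 parts (horizontal): level in CPM with 95% Poisson intervals (left; linear below 100, log above) and mean UMIs per cell (right, log scale). From part 9 to part 10, TNP2 goes from 47.0 to 5.68 UMIs per cell and HMGB4 from 44.8 to 8.66, while PRM3 goes from 13.9 to 12.8.

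Genes of the same process were read from 4 lists on the same axis (last 5 over first 5 bins, interval beyond 4-fold, against 25.1% of all features higher late and 3.9% higher early; the median log2 ratio of all features was 0.14). Of 10 spermatid nuclear protein and histone genes tested, 3 were higher late (H1-7, H1-8 and TSBP1) and 0 higher early, with a median log2 ratio of 0.75. H1-7, a spermatid linker histone, went from 8.20 to 529 CPM (64.5-fold, 53.1 to 79.1), with an onset after 40% of cells. The replacement histone variants had no such range: H3-3B went from 1369 to 2132 CPM, H3-3A from 377 to 684, H2AZ1 from 2049 to 1314 and H2AZ2 from 788 to 625.

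Of 20 chromatin remodelling genes tested, 5 were higher late (CHD5, NUTM1, TSSK6, CAMK4 and HMGB3) and 1 higher early (HMGB2), with a median log2 ratio of 0.55. CAMK4, a kinase known to act on PRM2, went from 20.4 to 740 CPM (36.2-fold, 32.03 to 41.2) with an onset after 30% of cells. BRDT, a bromodomain reader of acetylated histones, stood at 874 CPM early and 941 late, and NASP, a histone chaperone, at 1063 and 399. PHF7 stood at 413 and 398 CPM, and PSME4, a proteasome activator, at 309 and 307.

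Of 12 spermatid transcription factor genes, 2 were higher late (FHL5 and SOX5) and 0 higher early, with a median log2 ratio of 0.0082. CREM, a regulator known to act on the TNP and PRM genes, stood at 592 CPM early and 810 late. TBPL1 stood at 890 and 407 CPM, GTF2A1L at 510 and 377, RFX4 at 472 and 214 and TCFL5 at 368 and 148. Of 14 genes of messenger RNA storage and translation, 0 were called in either direction, with a median log2 ratio of -0.40. YBX3 stood at 4705 CPM early and 4159 late, YBX2, which binds stored spermatid RNA, at 722 and 543, PABPC1 at 2234 and 1710, TDRD7 at 1037 and 769 and TDRD6 at 853 and 578. The 10 genes whose levels are given here were those of each list with most testis UMIs, and none was called in either direction. Their presence in the first 5 bins follows from that choice and is no separate result.

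For each of the 5, the genes with a symbol and at least 500 UMIs (6946) were ranked by the Pearson correlation of log2(CPM + 10) over the 20 bins; the bins share 1 library and 1 axis, so that high values are common and are given as a description. HMGB4 was most like SELENOK (r = 0.998), TMCO2, CCDC196, SPATA19 and ACSBG2. PRM3 was most like H1-7 (r = 0.997), CFAP97D1, TSSK2, ATP1B3 and NCOA4. TNP1 was most like TEX35 (r = 0.994), UBL4B, SH3D21, ISCA1 and SPATA3. PRM2 was most like SPZ1 (r = 0.996), CCDC70, CEP295NL, OAZ3 and SPATA3. TNP2 was most like SPATA18 (r = 0.989), AKAP1, CST8, TSSK6 and BPIFA3. SPATA3, OAZ3 and SPATA18 belong to the list that built the axis.

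Within the set, HMGB4 and PRM3 were most alike (r = 0.985), as were TNP1 and PRM2 (0.980). TNP2 and HMGB4 were least alike (0.593), and PRM2 and PRM3 stood at 0.859. PRM2 and PRM3 lie on 1 chromosome with 0 genes between them in the RefSeq table, so these direct neighbours had different courses. HMGB4 lies within the span of CSMD2 in that table; CSMD2 had 3097 UMIs in germ cells, with 48.1 CPM in the first 5 bins and 119 in the last. No source used here says whether the counting used strand to separate the pair.

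In caput, the RNAs sat in few barcodes. Clusters 8 and 9, with 265 of 9478 barcodes, held 86.1% of the caput UMIs of TNP1, 86.7% of TNP2, 82.3% of PRM2, 79.0% of PRM3 and 70.5% of HMGB4. By UMIs of the 5 genes together, 8659 caput barcodes held 0, 654 held 1 and 68 held 2, while 14 barcodes with 50 or more held 59.9% of all. All 14 lay in clusters 8 and 9. Of the 50 barcodes with at least 10 UMIs, 20 held all 5 genes and 20 held 4.

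Caput cluster 9 (112 barcodes, median 1261.5 UMIs) was led by TNP1, PRM2 and TNP2 themselves, though they had no part in the clustering, and by the spermatid genes GSG1, OAZ3 and TPPP2. TNP1 stood there at 9718 CPM, TNP2 at 3124, PRM2 at 5140, PRM3 at 856 and HMGB4 at 2087. Summed elongating spermatid genes stood at 17835 CPM, against 186 in the other caput clusters and 14155 in the last testis bin. Epididymal luminal markers also stood at 12754 CPM there, and fibroblast markers at 2145, so that its barcodes do not hold germ cell RNA alone; the cluster was given no cell type name. Within it, 25 barcodes held no UMI of the 5 genes, the median was 3 and the highest 610. The 5 genes took at most 15.4% of a barcode's UMIs.

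Caput cluster 8 (153 barcodes, median 1930 UMIs) was germ cell-like by 11 of 12 markers and held an earlier mixture. HMGB4 stood there at 305 CPM, TNP1 at 117, PRM3 at 50.2, PRM2 at 45.4 and TNP2 at 11.3. Spermatocyte genes summed to 2947 CPM, round spermatid genes to 3414 and elongating spermatid genes to 2498, and luminal markers to 3346. Of its barcodes, 97 held no UMI of the 5 genes, and 3 barcodes held 34.4% of the cluster's 326. With barcodes thinned to 500 UMIs, HMGB4 was seen in 12.4% of cluster 8 (7.64 to 18.7%) and TNP1 in 3.27% (1.07 to 7.46%), while TNP1 was seen in 45.5% of cluster 9 (36.1 to 55.2%) and HMGB4 in 27.7% (19.6 to 36.9%). The last testis bin gave 81.1 and 79.2% at that depth.

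**Figure D4:**
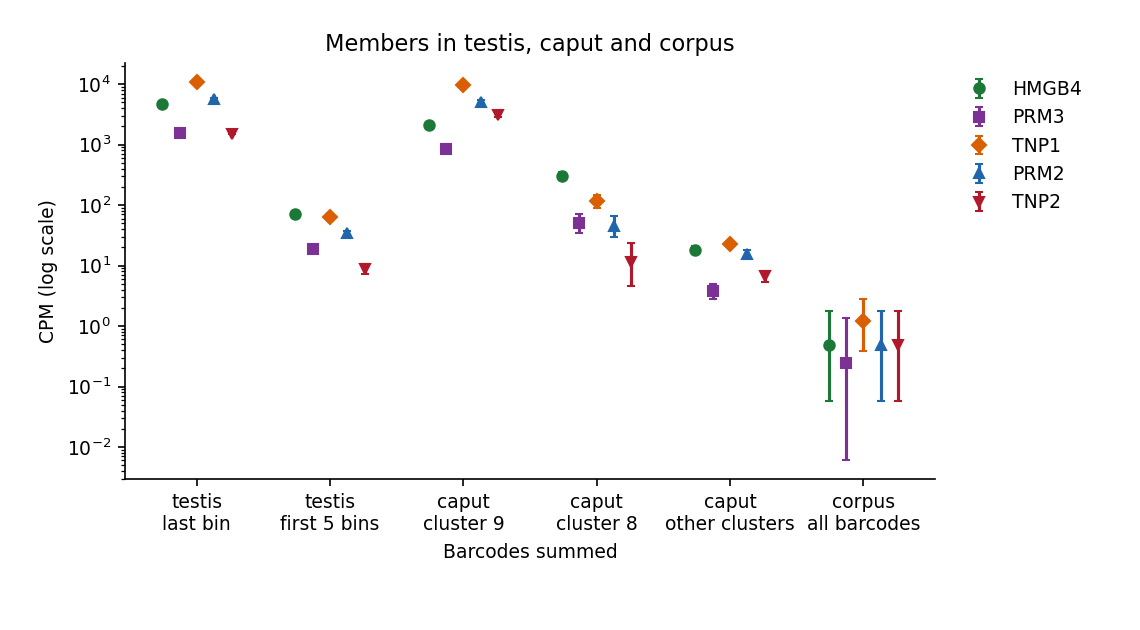
Level of each gene (CPM, log scale, with 95% Poisson intervals) in the last and the first 5 bins of the testis axis, in 2 caput clusters, in the other caput clusters and in all corpus barcodes. TNP1 stands at 10771 CPM in the last testis bin and 9718 in caput cluster 9, at 22.5 in the other caput clusters and at 1.21 in corpus.

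The proportions between the genes differed between the 2 caput clusters and were set beside stages of the testis course. Per 100 UMIs of TNP1, caput cluster 9 held 21.5 of HMGB4 (19.1 to 24.1), 8.81 of PRM3 (7.38 to 10.4), 52.9 of PRM2 (48.7 to 57.4) and 32.1 of TNP2 (29.1 to 35.5). Part 9 of the last testis bin held 19.1, 5.91, 42.3 and 19.98, and bin 19 held 164, 45.3, 48.0 and 3.49. Caput cluster 8 held 261 of HMGB4 (198 to 348), 43.1 of PRM3 (27.3 to 66.5), 38.9 of PRM2 (24.2 to 60.9) and 9.72 of TNP2 (3.77 to 21.1). Cluster 9 was thus near the late cells. Cluster 8 had an HMGB4 share above those of bin 19, of part 1 of the last bin (140, 128 to 154) and of the first 5 bins (109, 99.4 to 120). Its PRM3 interval, from 31 UMIs, held the values of bin 19, of part 1 (40.7) and of the first 5 bins (29.6), so PRM3 did not tell them apart. The bins between were not set beside cluster 8, so its place on the testis course was not settled.

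The TNP2 share of caput cluster 9 was above that of every testis stage set beside it, and it rested in part on few barcodes. The 3 barcodes with most UMIs of the 5 genes held 45.5% of the cluster's total and 41.2 TNP2 per 100 TNP1 (36.1 to 46.9). Without them the share was 23.9 (20.4 to 27.8) and HMGB4 stood at 21.7. That interval lay above the 19.98 of part 9 but overlapped the upper end of its interval (19.03 to 20.97). It also lay above the 14.2 of the whole last bin (13.7 to 14.7). PRM2, at 67.7 (60.8 to 75.2), was then farther from the 42.3 of part 9 (40.8 to 43.9).

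The other 9213 caput barcodes held a low level. TNP1 stood at 22.5 CPM (19.9 to 25.3), HMGB4 at 18.4, PRM2 at 15.6, TNP2 at 6.69 and PRM3 at 3.79. A TNP1 UMI was seen in 2.43% of barcodes in the cluster led by T and NK cell genes, in 2.74% in that led by fibroblast genes and in 2.35% in that led by macrophage genes, cells that should lack the gene. In the cluster led by DEFB119, BSPH1 and LCN10 it was seen in 2.94%, and in that led by LCN6 and RNASE10 in 2.45%. By level, TNP1 ranged from 14.6 CPM (6.999 to 26.8, cluster 5) to 37.6 (27.2 to 50.6, the T and NK cell cluster) among the clusters with over 100 barcodes, and TNP2 from 1.81 (0.219 to 6.54, the fibroblast cluster) to 14.9 (8.66 to 23.8, again the T and NK cell cluster). PRM2 was also highest in the T and NK cell cluster (27.1 CPM, 18.4 to 38.5). HMGB4 was instead highest in cluster 5 (24.8, 14.5 to 39.7) and PRM3 in cluster 0 (4.98, 3.28 to 7.24). By share of barcodes TNP1 was highest in cluster 7, at 3.26%. Single barcodes of the other caput clusters held up to 19 UMIs of TNP1 and 8 of TNP2, so few barcodes can weigh on these levels. Whether this RNA came from outside the cells was not tested. Thinned to 500 UMIs, the TNP1 share of the 9213 barcodes was 1.09% (0.884 to 1.32%).

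In testis, the first 5 bins held, per 100 TNP1, 109 of HMGB4, 29.6 of PRM3, 53.5 of PRM2 and 13.8 of TNP2, beside 119, 31.4, 48.8 and 10.8 over all germ cells. The somatic clusters left out held 175, 35.03, 47.7 and 10.2. The intervals of PRM2 and PRM3 in the first 5 bins and in the somatic clusters included the values over all germ cells, as did HMGB4 in the first 5 bins, while TNP2 in the first 5 bins (11.2 to 16.8) and HMGB4 in the somatic clusters (147 to 210) lay above. Whether the early level is RNA from lysed cells was not tested.

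In corpus the 5 genes gave 12 UMIs in all: 5 of TNP1, 2 each of TNP2, PRM2 and HMGB4, and 1 of PRM3. They lay in 10 of 9609 barcodes, 9 of which held 1 UMI and 1 of which held 3 (2 of TNP1 and 1 of TNP2). Of the 10, 9 were in cluster 0 and 1 in cluster 1, and 0 to 2 UMIs of elongating spermatid genes were seen beside them. The TNP1 share of corpus barcodes was 0.0416% (0.0113 to 0.107%), against 2.45% in the other caput clusters. Median depth was lower in corpus, but the level in CPM, which does not depend on depth, was 1.21 against 22.5.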

How the data were processed

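The deposited matrices hold raw UMI counts per feature and barcode, not normalized (per the file headers, generated by the authors with PISA 0.12). Cell Ranger 2.1.1 is named without a role in the submitters' processing notes. No source used here names the aligner or the build. A RefSeq table (EquAss-T2T_v2) was used for names and neighbours only; it gave a symbol to 749 of 18266 features with a locus identifier.

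Barcodes with at least 200 genes were kept. Each library was clustered without the 5 genes, on log counts per barcode (2000 variable genes, 30 components, 15 neighbours, Leiden resolution 1.0, seed 0). Testis clusters whose somatic markers took at least 3 times the share of the median cluster were left out, and caput clusters were called rich in germ cell genes by the same factor. The axis pooled each cell with its 15 neighbours and ranked (R + 2E)/(P + R + E), where P, R and E are mean scores of the spermatocyte, round and elongating lists. No doublets were removed: a caller marked 87 of 8610 testis barcodes, used in an alternative, and none was run on caput or corpus, where doublets remain.

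Counts were summed and given as CPM with exact Poisson intervals, shares with Clopper-Pearson intervals, and ratios with exact conditional binomial intervals. A feature was called if its interval was entirely beyond 4-fold and the higher group had 50 or more UMIs. Named genes were the 5, the up to 5 genes of each list with most testis UMIs, genes called in a list, and the 5 genes most like each of the 5. Members and lists were chosen with earlier results of these data known. The rules were tested on simulated Poisson counts with single-step rises, so gradual rises and extra spread between cells were not covered. Depth sets the precision: counting intervals say nothing of the spread between animals. Clustering used leidenalg 0.10.2, igraph 0.11.9 and scikit-learn 1.9.0, and the rest scipy 1.17.1, pandas 2.3.3, numpy 2.4.6 and matplotlib 3.10.9 under Python 3.11.15.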

Additional observations from a re-analysis of the deposited data

How the results depend on the processing

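Of 10 other settings, that of at least 500 genes per barcode kept the same 8388 germ cells and could not change the onsets. The order of onset above 2 times the early level, a measure added after the data were seen, was the same under all 10. Its places moved as follows, in percent of germ cells: on diffusion pseudotime HMGB4 to 50 and PRM3 to 55; PRM3 to 35 without pooling over neighbours, without merged barcodes, and without testis clusters 6, 8 and 13; PRM2 to 72.5 with 40 bins; and TNP2 to 95 without those clusters. The onset at 10% of the highest bin moved with 10 bins to 50 for PRM3 and 80 for PRM2, and with 40 bins to 67.5 for PRM3 and 95 for TNP1. The onset at 50% moved to 80 for HMGB4 with 10 bins and to 97.5 for PRM3 with 40 bins. The cause of these moves was not tested.

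Without merged barcodes, testis levels were 1036 CPM for HMGB4, 277 for PRM3, 890 for TNP1, 440 for PRM2 and 95.7 for TNP2, and caput TNP1 was 140. Without the 2 caput clusters rich in germ cell genes, caput levels were 18.4 CPM for HMGB4, 3.79 for PRM3, 22.5 for TNP1, 15.6 for PRM2 and 6.69 for TNP2. With at least 500 genes per barcode, corpus levels were 0 CPM for HMGB4, TNP1, PRM2 and TNP2 and 1.2005 CPM for PRM3 (from 0.241, 1 UMI), a setting that by construction keeps fewer barcodes. At 2-fold, 2172 features were higher early, 4416 higher in testis than caput, 4391 higher in testis than corpus and 1247 higher in caput than corpus, against 564, 2297, 2616 and 403. Leaving out germ clusters could not be run for corpus, which had none. No paired analysis was possible because each group had 1 library. The 12 corpus UMIs give wide intervals, so that differences between the genes in corpus were not detectable at this depth.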
